A study of Drosophila melanogaster with 10 samples.

Results

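The genes described here encode 10 ion channel subunits of *Drosophila*: the voltage-gated potassium channels Sh, Shab, Shal, Shaw, eag and sei, the calcium-activated potassium channel slo, the voltage-gated sodium channel para, and the inward rectifier potassium channels Irk1 and Irk2. They were chosen by name. Every probe set that the platform annotation gives to exactly 1 of these symbols was used, which gave 18 probe sets out of 13966 tested, with all 10 genes represented. Sh had 4 probe sets, Shab 3, Shaw, Irk1 and Irk2 had 2 each, and the other 5 genes had 1 each. Where a gene has several, letters name them in order of mean signal, so that Sh-a is the brightest of Sh, and the plots pair each letter with the probe set's identifier. RNA came from mushroom body neurons that were laser-captured from 15 micrometre sections, with 40 captures of about 100 cell bodies pooled for a sample. All samples carried the same transgenes in a yw/w background: OK107-GAL4 drove UAS-EcRB1[W650A], a dominant negative ecdysone receptor, together with UAS-mCD8::GFP, a membrane-bound fluorescent label. OK107-GAL4 is an insertion near the eyeless gene, is used as a mushroom body driver and is also active in some other brain cells. The groups differ in time after puparium formation, with 6 arrays at 0 h and 3 arrays at 5 h. For 1 more array the title and the age label disagree, and it was put in neither group. Animals without the transgenes (y,w) were not analysed here, so the comparison below is one of age under the dominant negative receptor. The labels call the samples biological replicates without giving the number of animals pooled. With 9 arrays, precision is limited by their number.

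Potassium channels let potassium leave the cell and bring the membrane back towards rest, so they set how long and how often a neuron fires. Voltage-gated channels open on depolarisation, while inward rectifiers pass potassium best near or below the resting potential and help to hold it. In the fly, para is the main sodium channel of the action potential. Mushroom body neurons, which store olfactory memories, are known to carry the product of Sh, the founding member of the voltage-gated potassium channel family, in their axons.

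The arrays at 0 h fell into 2 sets, with Pearson correlations across probe sets of 0.989 to 0.991 among replicates 1 to 3, 0.970 to 0.981 among replicates 4 to 6, and 0.948 to 0.974 between these sets. The first of these sets correlated more closely with the 5 h arrays (0.978 to 0.986) than it did with the second set. For the second set, correlations with the 5 h arrays spanned 0.949 to 0.973, much like those between the sets. No label explains the division of the 0 h arrays, and differences against each set are given where they part. The signal of the actin control at its 3' end exceeded that at its 5' end by 7.81 ± 0.28 in the 0 h arrays (log2, SD, n = 6) and by 8.55 ± 0.08 in the 5 h arrays (n = 3), a difference that passed a two-sided exact permutation test (p = 0.012, the smallest that 3 of 9 arrays can give). The same measure for the GAPDH control was 5.15 ± 0.50 and 5.55 ± 0.08, with overlapping ages, and did not pass (exact permutation p = 0.17). Among markers of the captured tissue, the pan-neuronal gene elav and the mushroom body transcription factor gene toy rose. The other neuron markers nSyb, brp and Rdl read 0.32, 0.28 and 0.37 (log2, 5 h minus 0 h). They did not pass (limma adjusted p of 0.28, 0.38 and 0.49), and Syn was at background. The mushroom body markers ey, dac, rut, dnc, mub and prt were above background and did not pass, with ey at -0.10 and prt at -0.16. Of 9 glial markers, Gli lay at background at both ages and Mdr65 at 0 h, and the others were above it. The summed linear signal of the 9 markers was 209.8 to 402 at 0 h and 576 to 716 at 5 h. Their part in the differences below was not tested.

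Levels were first set against background, read from 8 control probe sets for mouse and yeast sequences. The highest control mean was 3.46 at 0 h and 3.37 at 5 h on the log2 scale. At each age 13 of the 18 channel probe sets had a mean above it, against 10320 of 13966 at 0 h and 10332 at 5 h over all probe sets. These 13 covered 8 of the 10 genes. The exceptions were para and slo, each with a single probe set, and the dimmer probe set of Irk1, that of Irk2 and the dimmest of Shab also lay at background. In bulk RNA, fewer cells that express a gene and less of its RNA per cell cannot be told apart. Levels of different probe sets were not compared with one another.

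**Figure D1:**
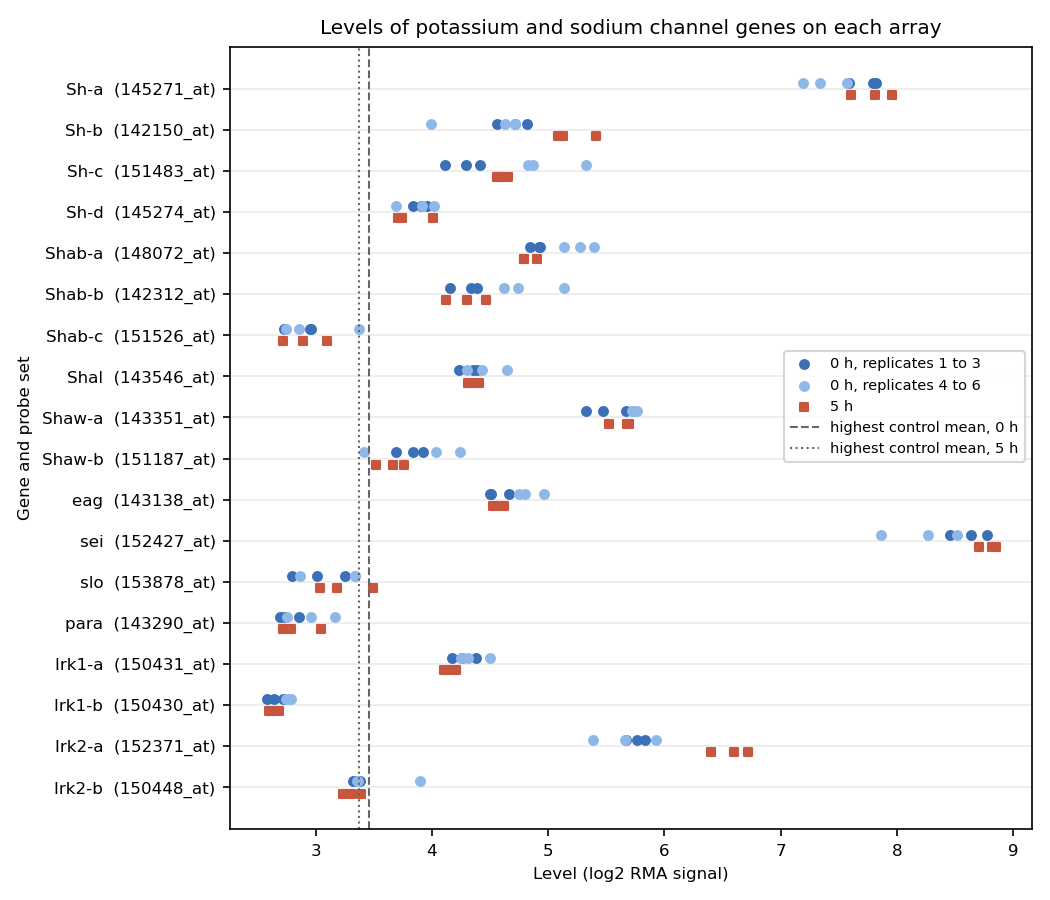
Level (log2 RMA signal) of each of the 18 probe sets on the 6 arrays at 0 h (circles, replicates 1 to 3 dark and 4 to 6 light) and the 3 arrays at 5 h (squares), with the highest control mean at each age as a vertical line (3.46 and 3.37). The squares of Irk2-a and Sh-b lie to the right of all their circles, while para lies below both lines on every array.

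Between the ages, 1 channel probe set passed the test, and it belonged to an inward rectifier. Irk2 rose 1.82-fold in its brighter probe set, and the other 17 probe sets did not pass the threshold of 0.05 (limma, p-values adjusted over all 13966 probe sets by Benjamini and Hochberg). The share called among all probe sets was 1.25% in either direction and 1.01% as higher at 5 h, so 1 call in 18 is too few to set the family apart. The arrays of the ages did not overlap for 2 channel probe sets, Irk2-a and Sh-b, where 9.79% of all probe sets had no overlap. At an unadjusted p of 0.05 the count was also 2 of 18, and 2051 over all probe sets. The median difference over the 18, 5 h minus 0 h, was -0.04 on the log2 scale, beside -0.07 over all probe sets.

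Irk2 encodes a subunit of the Kir type, which in the fly is also needed for wing patterning. In its brighter probe set, Irk2-a, the 0 h arrays read 5.39 at the lowest, 5.72 at the median and 5.93 at the highest (log2 level). The 5 h arrays read 6.40, 6.72 and 6.60. Every 5 h array was above every 0 h array, with a gap of 0.47 between the nearest ones. The means were 5.71 ± 0.19 (SD, n = 6) and 6.57 ± 0.16 (SD, n = 3), and the log2 difference was 0.86 with a standard error of 0.13 (limma adjusted p = 0.011). By size this difference ranked 192 among the 13966 probe sets, from the largest rise down. Against each set of 0 h arrays alone it passed with a like size, 0.82 for replicates 1 to 3 (limma adjusted p = 0.0018) and 0.91 for replicates 4 to 6 (adjusted p = 0.0040).

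The call for Irk2 depended on which arrays entered. Without the 5 h replicate 2 the difference was 0.79 (limma adjusted p = 0.092), and without the 5 h replicate 3 it was 0.85 (adjusted p = 0.083). With the array of conflicting labels counted as 0 h it was 0.76 (adjusted p = 0.13), and counted as 5 h it was 0.83 (adjusted p = 0.0049). With the actin 3' bias as a covariate the difference was 0.97 and its adjusted p was 1.0, with an unadjusted p of 0.0038. That bias did not overlap between the ages, at 7.45 to 8.10 at 0 h and 8.47 to 8.63 at 5 h. This fit can therefore hardly separate bias from age, and its adjusted p does not decide the call.

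The second probe set of Irk2, Irk2-b, did not follow. It read 3.44 ± 0.22 at 0 h and 3.31 ± 0.08 at 5 h (log2 level, SD). Both means lay just below the highest control means of 3.46 and 3.37. On 3 arrays at 0 h and 1 at 5 h it exceeded the highest control value of the same array. Its difference was -0.13 (limma adjusted p = 0.63), and so near background no change can be read. The glial marker genes bdl, wun2 and nrv2, which rose on the same 5 h arrays, had log2 differences of 1.84, 1.90 and 1.28. Of the other glial markers above background, alrm, repo and Mdr65 (above it only at 5 h) read 1.59, 0.83 and 0.23, and Gs2 and moody read -0.37 and -0.11. None of these passed (limma adjusted p of 0.15, 0.25, 0.47, 0.23 and 0.71). The part of glial RNA in the Irk2 difference was not tested.

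Irk1, the other inward rectifier of the set, did not pass in either probe set. Its brighter probe set, Irk1-a, read from 4.17 to 4.50 at 0 h, with a median of 4.29, and 4.14, 4.10 and 4.21 at 5 h (log2 level). The ages overlapped, and the difference was -0.16 (95% interval -0.39 to 0.06, limma adjusted p = 0.47). Its dimmer probe set read 2.71 at 0 h and 2.63 at 5 h, at background on every array.

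**Figure D2:**
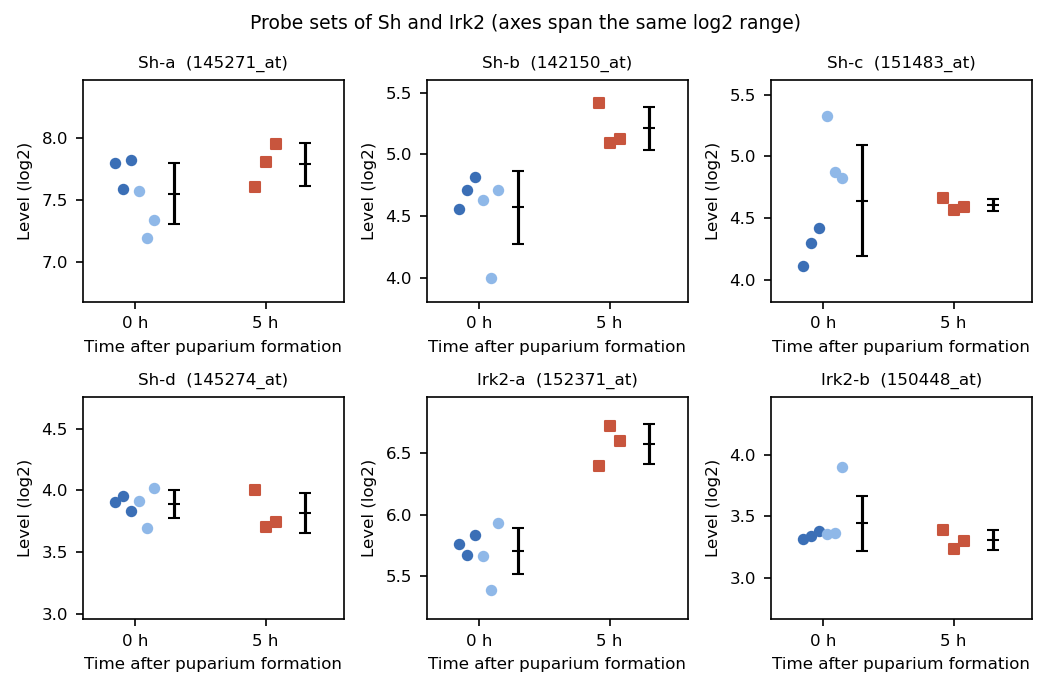
Level (log2) of the 4 Sh and 2 Irk2 probe sets at 0 h (circles, replicates 1 to 3 dark and 4 to 6 light) and 5 h (squares), with mean and SD beside each group. Irk2-a and Sh-b are higher on all 3 arrays at 5 h, while the other probe sets of these genes overlap between the ages.

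Sh, the Shaker gene, encodes a rapidly inactivating A-type channel, and none of its 4 probe sets passed. In Sh-b the 0 h arrays read 3.99 at the lowest, 4.67 at the median and 4.82 at the highest (log2 level), and the 5 h arrays read 5.41, 5.09 and 5.13. Every 5 h array was above every 0 h array. The means were 4.57 ± 0.30 and 5.21 ± 0.18 (SD), with a difference of 0.64 and a standard error of 0.17, but the adjusted p of limma was 0.097 and the probe set did not pass. Against only 0 h replicates 1 to 3 the difference was 0.52 and passed (limma adjusted p = 0.021), as it did against only replicates 4 to 6 at 0.77 (adjusted p = 0.020), and with array weights at 0.44 (adjusted p = 0.012). In the other 19 alternative settings Sh-b did not pass. Without the 5 h replicate 1, 2 or 3 its limma adjusted p was 0.31, 0.26 and 0.33. With the array of conflicting labels counted as 0 h it was 0.16.

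The brightest Sh probe set, Sh-a, read 7.55 ± 0.25 at 0 h and 7.79 ± 0.18 at 5 h (log2 level, SD), and the ages overlapped (difference 0.24, 95% interval -0.10 to 0.57, limma adjusted p = 0.47). Sh-c divided the 0 h arrays instead. It read 4.11, 4.29 and 4.42 in 0 h replicates 1 to 3 and 5.33, 4.87 and 4.82 in replicates 4 to 6. The 5 h arrays, at 4.66, 4.56 and 4.59, lay between these sets on average, and its difference was 0.33 against the first and -0.41 against the second, and neither passed (limma adjusted p of 0.077 and 0.074). The dimmest Sh probe set, Sh-d, read 3.89 and 3.82 and stayed above background on all arrays. Differences between the Sh probe sets were not tested, and no statement is made here about Sh as a whole. The part of the transcript that each probe set reads was not analysed here, for Sh or any other gene.

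The Shab gene encodes a slowly inactivating delayed rectifier. Its brightest probe set, Shab-a, read from 4.85 to 5.39 at 0 h, with a median of 5.03, and 4.90, 4.79 and 4.79 at 5 h (log2 level). The ages overlapped, and the difference of -0.26 had a 95% interval of -0.55 to 0.04 (limma adjusted p = 0.40). The next, Shab-b, read 4.56 ± 0.35 and 4.30 ± 0.17 (SD; adjusted p = 0.51). Both probe sets read lower at 5 h than 0 h replicates 4 to 6, by -0.44 and -0.53, and passed there (limma adjusted p of 0.027 and 0.038). Against replicates 1 to 3 the differences were -0.07 and 0.00, with adjusted p of 0.75 and 1.0. The dimmest Shab probe set read 2.94 and 2.90, at background.

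The sei gene, named for the seizures of its mutants, encodes the fly member of the ERG family of potassium channels, and eag encodes the founding member of the related EAG family. For sei the 0 h arrays read 7.87 at the lowest, 8.48 at the median and 8.78 at the highest (log2 level), and the 5 h arrays read 8.71, 8.85 and 8.82. Only 1 of the 0 h arrays, replicate 1, reached the range of the 5 h arrays. The difference was 0.37 (95% interval -0.01 to 0.75) with a limma adjusted p of 0.35. Set against 0 h replicates 4 to 6 alone, sei passed with a difference of 0.57 (adjusted p = 0.032). Set against replicates 1 to 3 alone, it did not, at 0.17 (adjusted p = 0.45). The gene eag read 4.70 ± 0.18 at 0 h and 4.56 ± 0.05 at 5 h (SD), with a difference of -0.13 (95% interval -0.40 to 0.13, adjusted p = 0.58).

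Shal and the brighter Shaw probe set had differences close to 0. Shal, which encodes an A-type channel of cell bodies and dendrites, read from 4.24 to 4.64 at 0 h, with a median of 4.37, and 4.40, 4.31 and 4.35 at 5 h (log2 level). All 3 arrays at 5 h lay within the 0 h range, and the 95% interval of the difference, -0.27 to 0.20, holds changes of up to about that size in either direction. Shaw, whose channel opens with little dependence on voltage and acts much like a leak, read 5.61 ± 0.17 and 5.63 ± 0.10 in its brighter probe set (SD; difference 0.02, 95% interval -0.25 to 0.29). Its dimmer probe set read 3.86 ± 0.28 and 3.65 ± 0.12 (limma adjusted p = 0.54).

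For slo and para no change could be measured. The slo gene encodes a channel of large conductance that opens on calcium and depolarisation together. Its probe set read 3.10 ± 0.24 at 0 h and 3.24 ± 0.23 at 5 h (log2 level, SD), and only 1 array, the 5 h replicate 1 at 3.49, exceeded the highest control value of the same array. The probe set of para read 2.86 ± 0.18 and 2.85 ± 0.18 and was below the highest control value on all 9 arrays. A probe set at background gives only an upper bound on the level of the sequence it reads.

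The voltage-gated channels, with slo and para counted among them, and the inward rectifiers were compared through their differences with age. None of the 14 voltage-gated probe sets passed, and 1 of the 4 inward rectifier probe sets did. Differences ran from -0.27 to 0.64 in the first class and from -0.16 to 0.86 in the second (log2, 5 h minus 0 h). The medians were -0.04 and -0.10, but 3 of the 14 and 2 of the 4 probe sets lay at background, where no change can be read. Without these the medians were -0.04 and 0.35, the latter the mean of Irk1 at -0.16 and Irk2 at 0.86. The 2 inward rectifier genes thus lay further apart from each other than the class medians did, and the class difference was not tested.

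**Figure D3:**
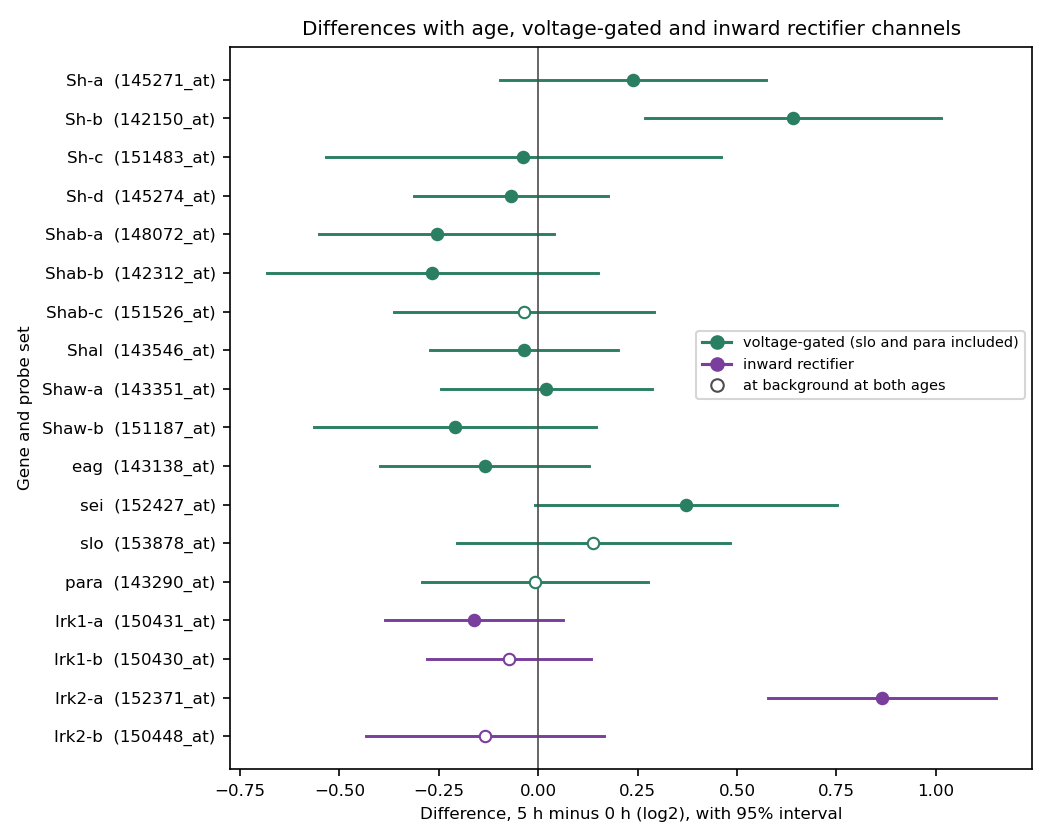
Difference of each probe set, 5 h minus 0 h (log2), with its 95% interval from limma. Green marks the 14 voltage-gated probe sets and purple the 4 inward rectifier probe sets, open circles mark those at background at both ages. The intervals of Irk2-a (0.58 to 1.15) and Sh-b (0.27 to 1.01) lie above 0 and all others hold 0.

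The calls were also made against each set of 0 h arrays alone. Against 0 h replicates 1 to 3, 2 channel probe sets passed limma, Irk2-a and Sh-b, where 8.11% of all probe sets did. Against replicates 4 to 6, 5 passed, these 2 with both brighter Shab probe sets and sei, where 22.0% of all probe sets did. In neither case does the number stand out from its background. Of the 18, only Irk2-a passed with all 6 arrays and with each set of 3. These fits share the same 5 h arrays, so they are not independent of one another. As given above, the call of Irk2-a was lost without the 5 h replicate 2 or 3.

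**Figure D4:**
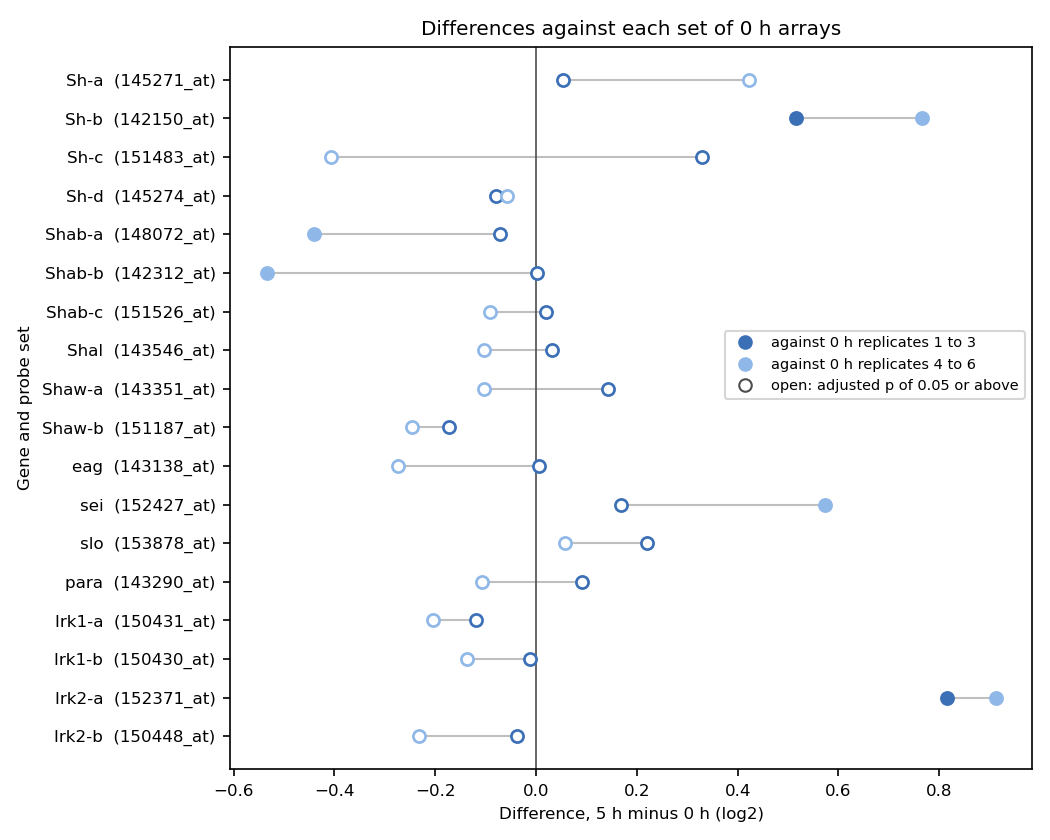
Difference of each probe set, 5 h minus 0 h (log2), against 0 h replicates 1 to 3 (dark) and replicates 4 to 6 (light), with a line joining the 2 values and filled circles for an adjusted p below 0.05 in limma. Irk2-a has both values filled and close together (0.82 and 0.91), while Sh-c changes sign (0.33 and -0.41).

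Other genes of membrane excitability were read from lists, each gene by its brightest probe set. None of 10 further potassium channel genes passed, and 4 read higher at 5 h (median log2 difference -0.04). SK, a calcium-activated channel of small conductance, read 7.05 ± 0.27 at 0 h and 7.56 ± 0.11 at 5 h (SD), and its limma adjusted p was 0.15. The ages did not overlap for it, as for 9.79% of all probe sets. SK has 5 probe sets, and only the brightest is given. SLO2, a relative of slo, read -0.29 (log2, 5 h minus 0 h; adjusted p = 0.41). Irk3, the remaining inward rectifier gene, read 3.83 ± 0.20 and 3.63 ± 0.03 (adjusted p = 0.48).

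None of 8 auxiliary and interacting protein genes passed (median -0.05). Hk, which encodes the beta subunit of the Sh channel, read -0.22 (log2, 5 h minus 0 h; limma adjusted p = 0.39), and Teh1, whose product enhances the para channel, read -0.21 (adjusted p = 0.50). The gene tipE, whose product also raises para channel activity, lay at background like para, at 3.26 at both ages. None of 8 genes for calcium, HCN, sodium leak and related channels passed (median -0.07), with Ca-beta at -0.27 and Ca-alpha1D at 0.21.

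Among 4 regulators of para transcripts or protein none passed. Adar, the enzyme that edits adenosines in transcripts of many channels, para among them, read from 3.81 to 4.20 at 0 h and from 4.23 to 4.36 at 5 h (log2 level). The ages did not overlap, as for 9.79% of all probe sets, and its limma adjusted p was 0.19. The helicase gene mle read -0.25 (adjusted p = 0.67), with -0.72 against 0 h replicates 1 to 3 and 0.22 against replicates 4 to 6. Of 3 measured sodium pump beta subunit genes nrv2, which also served as a glial marker, rose 2.44-fold (adjusted p = 0.018), and nrv1 and nrv3 read 0.38 and 0.22.

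Markers of other cells were read beside these values. Of 9 glial markers bdl, wun2 and nrv2 rose and 6 did not pass, among them the pan-glial gene repo at 0.83 (log2, 5 h minus 0 h; limma adjusted p = 0.25). Of the 9, 6 read higher at 5 h, and Gs2, moody and Gli read lower, with Gli at background. Of 7 muscle markers bt rose 2.08-fold and the others did not pass, and Tm2 was at background. The summed muscle signal was 125 to 159.7 at 0 h and 142 to 156 at 5 h. Of 6 hemocyte markers only Pxn and crq were above background, and none passed. The scavenger receptor gene crq read from 2.63 to 4.40 at 0 h and from 4.76 to 5.36 at 5 h (log2 level). Its ages did not overlap, as for 9.79% of all probe sets (difference 1.39, limma adjusted p = 0.063). The summed hemocyte signal was 99.4 to 137 at 0 h and 145 to 189.9 at 5 h, also without overlap, and its part in the channel differences was not tested. The 4 measured fat body markers did not pass either, with Fbp2 at -1.14 and apolpp at 0.83. The summed fat body signal ran from 480.1 to 2573 at 0 h and from 821 to 1595 at 5 h.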

How the data were processed

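Gene expression was measured on single Affymetrix Drosophila Genome arrays. Per the labels' protocols, about 22 ng of RNA was amplified linearly in 2 rounds and labelled with biotin. The deposited values are log2 probe set summaries for which the submitters' processing notes name RMA and Affymetrix Expression Console. Array medians ran from 4.30 to 4.44. Versions are not given in the sources used here, nor which arrays the authors processed together. No genome build is named, so no coordinates are given.

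From 14010 probe sets 44 controls were left out. Symbols came from the platform annotation (12443 probe sets with 1 symbol, 327 with several, 1196 with none). Ages were compared by limma 3.58.1 in R 4.3.3 (lmFit, eBayes, two-sided) without filter, with a threshold of 0.05 after Benjamini-Hochberg adjustment over all probe sets. Intervals are 95% intervals of the moderated fit. Exact permutation tests used all 84 choices of 3 of 9 arrays. The fit was tested on simulated data with independent arrays. These held neither the division of the 0 h arrays nor a 3' bias tied to age, so that test does not cover either.

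All probe sets of the 10 genes are named. From other lists, members past the threshold (up to 4 per direction) or otherwise the 2 largest differences are named. Irk3, tipE, nrv1, nrv3, repo, Gs2, moody, Gli, Tm2 and the mushroom body markers below the threshold were named after their values were seen. The same holds for alrm, Mdr65, nSyb, brp, Rdl and Syn. KCNQ, qvr, Cam, CaMKII, Atpalpha, Syt1, Fas2, Eaat1, Mhc, wupA, Act57B and the 3 Lsp1 genes matched no probe set with 1 symbol. Members, lists and alternatives were chosen with earlier results of these data known. Background values from the highest single control value and from bacterial controls were added after seeing the data.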

Additional observations from a re-analysis of the deposited data

Results flagged for a closer look

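For 3 of the 18 probe sets, 1 of the 6 arrays at 0 h stood far from the other 5 (its gap to the nearest array was over 0.625 of the group's range, Dixon's 95% value). Chance flags about 1 in 20 groups. Sh-b read 3.99 in 0 h replicate 5, against 4.56 to 4.82 in the others, and without that array its difference was 0.53 (limma adjusted p = 0.061). Shab-c, at background, read 3.37 in 0 h replicate 4, against 2.73 to 2.96. Irk2-b read 3.90 in 0 h replicate 6, against 3.32 to 3.38.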

How the results depend on the processing

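The number of channel probe sets past the threshold was 1. It was 0 with the array of conflicting labels counted as 0 h and at an adjusted p of 0.01. It was also 0 with an exact permutation test per probe set, which cannot reach the threshold here. With the actin 3' bias as a covariate, which can hardly be separated from age, it was 0 as well. Against only 0 h replicates 1 to 3 it was 2, where 8.11% of all probe sets passed. Against only replicates 4 to 6 it was 5, where 22.0% did. It was also 2 with array weights and at an adjusted p of 0.1. For these settings the share over all probe sets is not given, so the counts are not read as a result about the channels. Leaving out 1 array gave 0 to 1, with 0 without the 5 h replicate 2 or 3. The difference of Irk2-a ran from 0.73 to 0.97 over 22 alternatives and passed in 16. Same-numbered arrays did not deviate together, with correlations of -0.333, -0.133 and -0.233 for the numbers in the descriptions and -0.209, 0.116 and -0.352 for those in the titles. By these correlations the numbers pair no arrays. With a replicate block by the description numbers the count was 1, and by the title numbers 0. The first block fit used only 0 h replicates 1 to 3 and the second only 0 h replicates 2 to 4. These counts can therefore also reflect the arrays left out.

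The inward rectifier median, -0.10, became 0.35 with only probe sets above background or the brightest per gene, and 0.0649 with the 3' bias covariate. The voltage-gated median, -0.04, stayed between -0.10 and 0.12. With the bacterial control probe sets counted as background too, its highest mean was 4.43 at 0 h and 4.34 at 5 h. By that measure 9 of 18 probe sets were above background at each age, and the share over all probe sets is not given. The actin 3' bias difference, 0.74, was 0.64 and 0.85 against the 2 sets of 0 h arrays, where 3 against 3 cannot pass (exact permutation p = 0.10).

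Of the 17 probe sets that did not pass, 14 changed sign under some alternative, and the cause was not tested. With the 3' bias covariate these were Sh-c 0.59, Sh-d 0.20, Shab-a 0.15, Shab-c 0.21, Shaw-b 0.46, eag 0.0687, sei -0.21, slo -0.0415, Irk1-b 0.0018 and Irk2-b 0.13. Against 0 h replicates 1 to 3, and with the same values under the description block, they were Sh-c 0.33, Shab-b 0.0020, Shab-c 0.0207, Shal 0.0309, eag 0.0052 and para 0.0903. Against replicates 4 to 6 Shaw-a was -0.10. With the title block Shal was 0.0093, Shaw-a -0.0016 and para 0.0025. With repeated quantile normalization Shab-c was 0.0529, Shal 0.0060, Shaw-a -0.0492, para 0.0825 and Irk1-b 0.0139. With median centring Sh-c was 0.0056, Shab-c 0.0085, Shal 0.0078 and para 0.0349. With array weights Sh-c was 0.16, Shab-c 0.0944 and Irk1-b 0.0063. With the array of conflicting labels at 0 h Shab-c was 0.0062 and para 0.0049, and with it at 5 h Shaw-a was -0.0207. With 1 array left out Sh-c ran from -0.14 to 0.0994, Shab-c from -0.13 to 0.0565, Shal from -0.0672 to 0.0142, Shaw-a from -0.0373 to 0.0747 and para from -0.11 to 0.0570.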

Other observations

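The array whose title gives 5 h and whose age label and description give 0 h was read for the same probe sets. For Irk2-a it read 6.42 (log2 level), within the 5 h range of 6.40 to 6.72 and above all arrays at 0 h. For sei it read 8.82, also within the range of the 5 h arrays and above that of the 0 h arrays. For Sh-b it read 4.68, within the 0 h range and below all arrays at 5 h. Over the 18 probe sets it lay within both ranges for 4, within the 0 h range alone for 9, within the 5 h range alone for 2 and within neither for 3. The 0 h range rests on 6 arrays and the 5 h range on 3, so the first is wider by construction.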
